A study of Mus musculus with 3 samples.

Results

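The interferon-stimulated genes described here are a set of 40 genes chosen by symbol as textbook targets of interferon signalling, out of the 23282 gene rows measured. These genes and the other gene lists below were chosen with earlier results of these data known. By known role the 40 divide into 23 antiviral effectors, 4 sensors of foreign nucleic acid, 4 transcription factors and 9 GTPases of the GBP and IRG families. They were read in CD4 T cells from the spleen and lymph nodes of C57BL/6 mice (C57BL/6J in the methods of the study), all activated with antibodies against CD3 and CD28 (2 µg/ml) and cultured for 72 h. Complete medium (CM) was RPMI with 10% fetal bovine serum, dialyzed medium (DM) was RPMI without amino acids and with dialyzed serum, and DM+Met was DM with 30 µM methionine. The study states that DM still held some methionine, so DM+Met against DM does not compare its presence with its absence. Mice were females of 6 to 8 weeks unless the methods say otherwise, and whether cells of several animals were pooled is not given for these libraries. Each medium has 1 entry with a pair of files, whose nature (separate cultures or repeat runs) is not stated in the labels. The 2 files were taken here as the pair of biological samples per medium that the study describes. Thus 2 libraries per medium were compared, 6 in all, and the p-values measure the spread between these files, which may be technical. This spread exceeded counting error. Its chi-square per degree of freedom ran from 18.2 (DM+Met) to 35.9 (DM), where counting error alone gives about 1. The source of the excess was not tested.

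Interferons are secreted proteins that warn cells of infection. Type I interferons (IFN-α and IFN-β) bind the receptor IFNAR, whose kinases JAK1 and TYK2 phosphorylate STAT proteins, and these join IRF9 in a complex that binds the interferon-stimulated response element (ISRE) in target promoters. Type II interferon (IFN-γ), which activated T cells themselves secrete, acts through IFNGR, JAK1 and JAK2 on promoters with the gamma-activated site (GAS), and it is the better known inducer of the GBP and IRG GTPases.

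Depth was 8504733 to 12377756 reads per library. Rn45s, a ribosomal RNA precursor, took 31.0% to 32.9% of reads with CM, 37.2% to 38.3% with DM and 15.5% to 20.1% with DM+Met. Across the tested rows the 2 DM libraries were less alike (r = 0.919) than the CM (r = 0.938) or DM+Met pair (r = 0.973), and each DM library was closer to DM+Met than to its partner. This is a description across genes, with no test. The CD4 T cell markers Cd3d, Cd3e, Cd3g, Cd4, Cd5, Cd28, Lck and Cd6 were read in every library, with at least 286 reads each. Trat1, a further marker, had 0 reads in both CM libraries. Of these 9 markers, 4 were higher and 1 was lower in DM than in CM (limma, adjusted p below 0.05). That is 55.6% called, against 16.9% of all tested rows, so these markers were not a steady reference between DM and CM. In DM+Met against CM 22.2% of them were called, against 15.3% of all tested rows. Levels are log2(CPM + 1), where CPM is the read number of a gene after scaling to a common depth, and fold changes on this scale understate the change of genes with few reads. The library kit yields a read near the poly(A) end of a transcript whatever its length, so levels were not divided by length.

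Between DM and CM, 8 of the 38 tested interferon-stimulated genes were higher in DM and 1 was lower (limma, adjusted p below 0.05 over 12770 rows). The 8 were Ifit2, Ifih1, Rtp4, Ifit1, Iigp1, Ifi47, Parp14 and Irf9, and the gene that fell was Bst2. Over all tested rows 16.9% were called in this comparison, 7.8% higher and 9.07% lower, against 23.7% of the tested interferon-stimulated genes. The median log2 fold change was 0.31 over these 38 and 0.07 over all rows. The 2 DM libraries exceeded both from CM in 17 of the 38 genes and fell short of both in 6, where all rows gave 27.9% above and 26.2% below. The other 2 of the 40, Oas2 and Oasl2, had too few reads to be tested. Exons on the opposite strand overlap those of Dhx58, Eif2ak2, Gbp2, Ifi35, Ifi47, Irf1, Irf7, Oasl1, Parp9 and Usp18 in the GENCODE annotation, and since the use of strand is not given, reads of such partners cannot be told apart. On the same strand, exons of Rtp4 overlap Gm45338, those of Parp14 overlap Gm49730, those of Gbp7 overlap Gm43802, and those of Igtp and Irgm2 overlap each other. In bulk RNA, a change in the number of cells that express a gene and a change in RNA per cell cannot be told apart.

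Between DM+Met and CM, 12 of the 38 were higher in DM+Met and 0 were lower, which is 31.6% called. Over all rows 15.3% were called, 6.92% higher and 8.36% lower. Without a called fall there were still 7 genes with a log2 fold change below 0, of which Dhx58 had the largest (−2.52, adjusted p 0.0656); it was called lower in 5 of the 12 alternatives that kept every library. The median log2 fold change was 0.54 over the 38 and 0.06 over all rows. Between DM+Met and DM, 0 of the 38 were called in limma, with 6 (15.8%) at an unadjusted p below 0.05 beside 9.69% of all rows, and limma-voom on recovered reads also called 0. Over all rows that comparison called 7 genes, 0.0548% (0.0392% higher and 0.0157% lower). The comparisons with CM share the CM libraries, and both comparisons of DM share the DM libraries, so their values are given side by side and do not count as separate evidence. Of the 38 genes, 24 had their lowest mean with CM, 11 with DM and 3 with DM+Met, and 21 had their highest mean with DM+Met. Over all tested rows 42.7% had their lowest mean with CM, against 63.2% of these genes, and 31.8% their highest with DM+Met, against 55.3%.

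**Figure D1:**
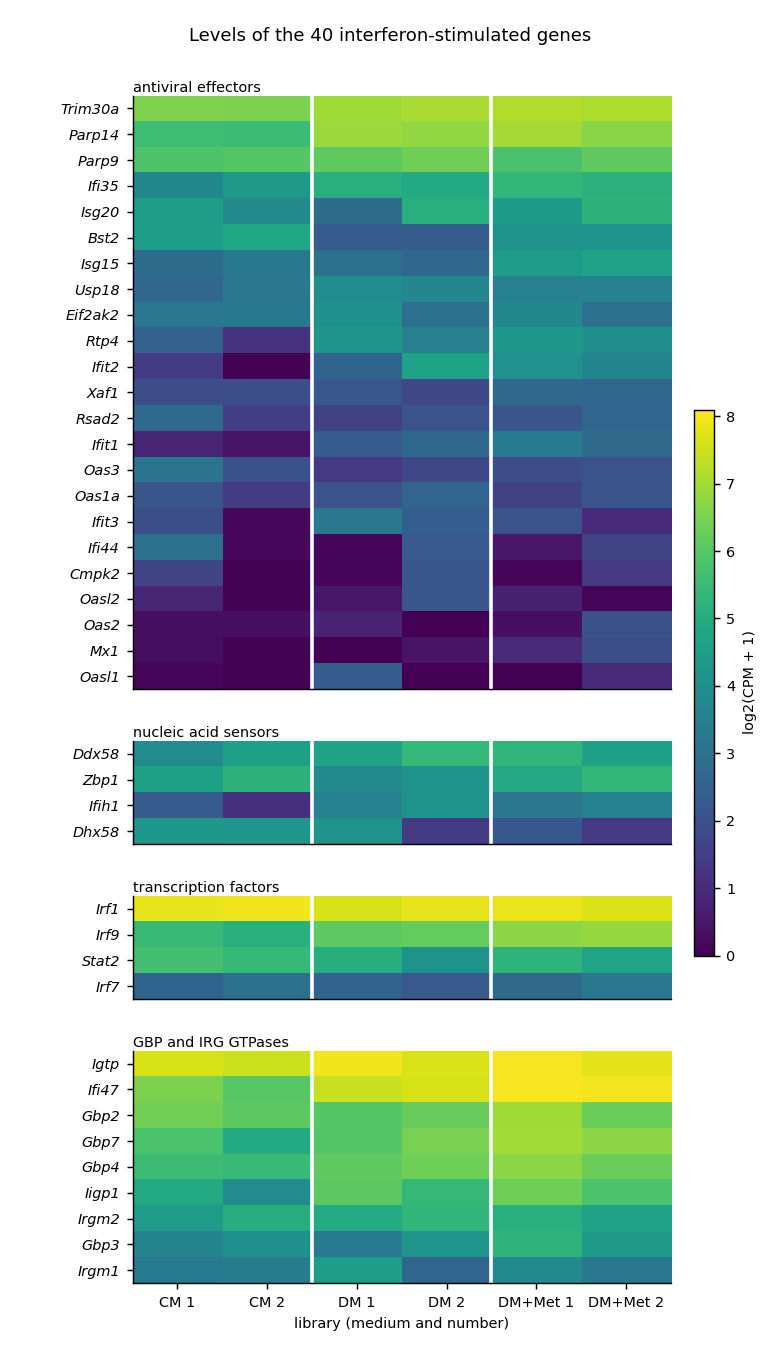
Level of each of the 40 genes, as log2(CPM + 1), in the 6 libraries, with genes as rows grouped by role and sorted by mean, and white lines between the media. The rows of Parp14, Rtp4, Ifit2 and Ifi47 are brighter in the 4 libraries of the dialyzed media than in both CM libraries, Bst2 is darkest in both DM libraries, and Ifi44 and Cmpk2 differ more within a medium than between media.

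Promoter sequences are shown because the ISRE and the GAS are what the members are known to share, and sequence was not used to choose them. RefSeq windows (GRCm38.p6) of 250 bases before to 50 bases after the start were held for 30 of the 40 genes. The ISRE core searched for was GAAANNGAAA, on both strands, and the GAS was TTCNNNGAA, which reads the same on both strands; the 2 motifs may overlap. The ISRE core was in 18 of the 30 genes (60.0%) and in 1079 of all 27025 genes of the table (3.99%). The GAS was in 10 of the 30 (33.3%) and in 2582 of the 27025 (9.55%). By role, the ISRE core was in 6 of 7 GTPases, 9 of 17 antiviral genes, 2 of 2 sensors and 1 of 4 transcription factors. By response, it was in 2 of the 5 genes with a window that were higher in DM, in Bst2, which was lower, and in 15 of the 23 that were not called. A match is a description of letters and shows no binding.

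The upstream 250 bases follow for the antiviral genes with the largest called rise (Ifit2) and the only called fall (Bst2) in DM, and for the GTPase Ifi47, with motif letters in capitals. Bst2 (chr8:71537473-71537722, minus strand) held a GAS whose first base lay at −136 and that ran into ISRE cores at −130 and −124. Ifit2 (chr19:34550444-34550693, plus strand) held a GAS at −241 and no ISRE core in this window. A second Ifit2 window (chr19:34550838-34551087, plus strand) held neither motif and is not shown. Ifi47 (chr11:49076337-49076586, plus strand) held neither.
Bst2: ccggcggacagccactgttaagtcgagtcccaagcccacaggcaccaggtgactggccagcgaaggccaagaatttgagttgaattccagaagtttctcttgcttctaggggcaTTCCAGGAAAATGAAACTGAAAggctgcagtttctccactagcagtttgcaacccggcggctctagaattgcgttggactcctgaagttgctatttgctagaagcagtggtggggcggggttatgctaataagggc
Ifit2: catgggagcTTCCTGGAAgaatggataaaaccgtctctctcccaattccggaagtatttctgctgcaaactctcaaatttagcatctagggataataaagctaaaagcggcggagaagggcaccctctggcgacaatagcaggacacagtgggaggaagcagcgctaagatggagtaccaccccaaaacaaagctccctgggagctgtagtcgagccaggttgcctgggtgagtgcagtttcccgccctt
Ifi47: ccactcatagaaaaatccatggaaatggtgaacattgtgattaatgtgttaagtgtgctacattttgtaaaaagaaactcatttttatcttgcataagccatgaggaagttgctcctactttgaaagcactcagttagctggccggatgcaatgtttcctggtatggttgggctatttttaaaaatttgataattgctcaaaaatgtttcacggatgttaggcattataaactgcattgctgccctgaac

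Shorter stretches are shown for 5 more genes, chosen after their values were seen because their motifs lie close together. Isg15 (chr4:156200865-156200906, minus strand) held 3 overlapping ISRE cores, at −78, −72 and −66. Ifit1 (chr19:34640775-34640823, plus strand) held the core at −104 and −85 on the opposite strand. Gbp7 (chr3:142530220-142530302, plus strand) held a GAS at −106 and −87 and an ISRE core at −53. Igtp (chr11:58199501-58199541, plus strand) and Irgm2 (chr11:58214892-58214932, plus strand) are neighbours whose stretches were the same at 40 of 41 bases, with the difference T14C inside the GAS, counted from 1 at the 5′ end with the Igtp base first.
Isg15: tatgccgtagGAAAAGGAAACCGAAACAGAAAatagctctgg
Ifit1: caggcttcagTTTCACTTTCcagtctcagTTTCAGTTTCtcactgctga
Gbp7: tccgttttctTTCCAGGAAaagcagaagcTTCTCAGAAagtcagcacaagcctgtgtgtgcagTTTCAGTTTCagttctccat
Igtp: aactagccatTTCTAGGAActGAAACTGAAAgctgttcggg
Irgm2: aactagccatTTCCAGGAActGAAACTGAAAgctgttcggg

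**Figure D2:**
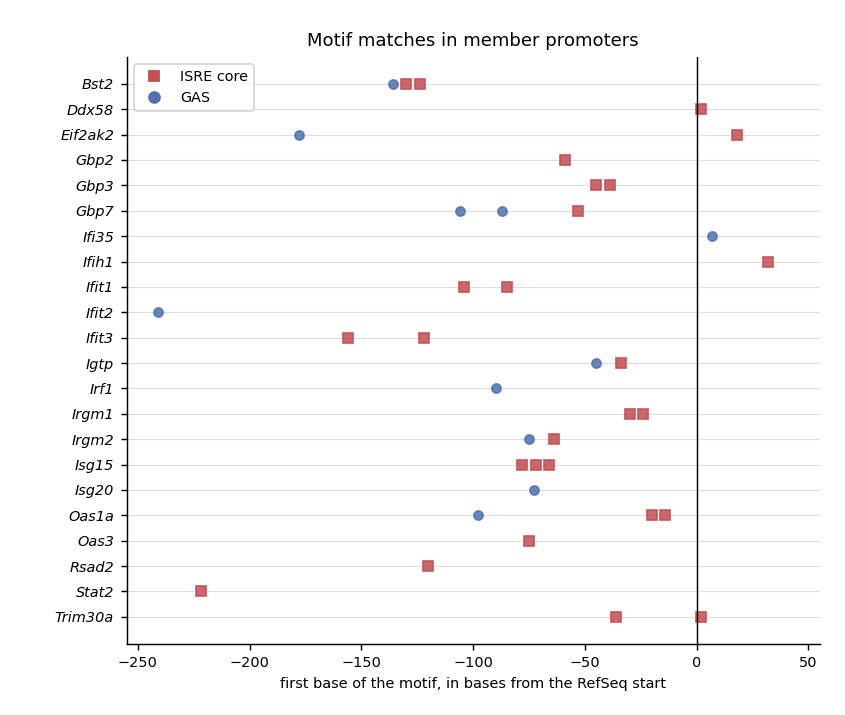
Positions of ISRE cores (squares) and GAS matches (circles) in the windows of the 22 genes with a match, in bases from the RefSeq start (0, vertical line). Most ISRE cores lie within 150 bases upstream of the start, with those of Isg15, Bst2, Gbp3, Irgm1 and Oas1a in adjacent pairs or triplets.

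Among the antiviral genes, the largest rise in each dialyzed medium was that of Ifit2, of the IFIT family, whose proteins bind viral RNA and block its translation. Ifit2 had 15 and 0 reads with CM, 50 and 280 with DM and 191 and 137 with DM+Met. It was higher by 2.93 (SE 0.76) on the log2 scale in DM than in CM (limma, adjusted p 0.0282) and by 3.15 in DM+Met (adjusted p 0.0221). The DM libraries differed widely, and with 1 library left out the change in DM ranged from 1.89 (without DM library 2) to 3.97 (without DM library 1). Ifit1, of the same family, had 7 and 3 reads with CM, 41 and 61 with DM and 108 and 71 with DM+Met, so the 3 media did not overlap. Ifit1 rose by 1.87 (SE 0.56, adjusted p 0.0480) in DM and by 2.41 (adjusted p 0.0183) in DM+Met. The third member, Ifit3, had 25 and 1 reads with CM, 83 and 49 with DM and 39 and 12 with DM+Met, and its difference of 1.77 in DM (SE 0.74) was not called (adjusted p 0.129). The 3 genes lie in 1 stretch of chromosome 19, between bases 34550694 and 34650009 (GRCm38).

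Parp14 and Rtp4 were the other antiviral genes that rose in both dialyzed media. Parp14, an ADP-ribosyltransferase, had log2 levels of 5.58 and 5.55 with CM, 6.89 and 6.79 with DM and 7.02 and 6.67 with DM+Met, with no overlap between CM and the rest. It rose by 1.27 (SE 0.20, adjusted p 0.00324) in DM and by 1.28 (adjusted p 0.00264) in DM+Met. Parp9, which encodes another member of that enzyme family, stood at 5.84 and 5.96 with CM, 6.09 and 6.34 with DM and 5.78 and 6.12 with DM+Met, and was not called in any comparison; its exons overlap those of Dtx3l on the other strand. Rtp4 had 42 and 10 reads with CM, 170 and 118 with DM and 225 and 183 with DM+Met. Both dialyzed media lay above CM, by 1.99 in DM (SE 0.56, adjusted p 0.0383) and 2.31 in DM+Met (adjusted p 0.0225). With 1 library left out, the Rtp4 change in DM ranged from 1.32 (without CM library 2, which had the fewest Rtp4 reads) to 2.665 (without CM library 1).

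Bst2, which encodes tetherin, a membrane protein that holds budding virions at the cell surface, moved the other way. It had 191 and 215 reads with CM, 39 and 48 with DM and 202 and 200 with DM+Met. The DM libraries lay far below the other 4, and the pairs within each medium were close. Bst2 fell by 2.32 on the log2 scale in DM (SE 0.40, adjusted p 0.00500). Between DM+Met and DM it differed by 1.81 (95% confidence interval 0.91 to 2.71), which had the smallest adjusted p of the set in that comparison, 0.232, and was not called. Its difference between DM+Met and CM was −0.51 (adjusted p 0.436).

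Isg15, a ubiquitin-like protein that is joined to others during the antiviral response, was read most in DM+Met. It had 55 and 68 reads with CM, 68 and 64 with DM and 254 and 291 with DM+Met. Both DM+Met libraries stood above the other 4, which overlapped. Isg15 rose by 1.503 (SE 0.44, adjusted p 0.0461) in DM+Met against CM, and its difference of 1.71 from DM (95% confidence interval 0.73 to 2.69) was not called (adjusted p 0.284). Usp18, the protease that removes ISG15 from its targets, showed another order, with 47 and 65 reads with CM, 140 and 142 with DM and 127 and 133 with DM+Met. Its difference of 0.90 in DM (adjusted p 0.195) was not called, although both dialyzed media lay above CM.

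Ifi35 and Trim30a had called rises in DM+Met and same-signed differences in DM that were not called. Ifi35 had 112 and 153 reads with CM, 325 and 340 with DM and 480 and 428 with DM+Met. It rose by 1.21 in DM+Met (SE 0.31, adjusted p 0.0286), with 0.95 in DM (adjusted p 0.0640). Trim30a, with 706 reads or more in every library, rose by 0.60 in DM+Met (SE 0.17, adjusted p 0.0399), with 0.49 in DM (adjusted p 0.0751).

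The remaining 12 antiviral genes, all but Isg20 with at most 154 reads in any library, included several whose libraries of 1 medium differed widely. Ifi44 had 61 and 1 reads with CM, 1 and 43 with DM and 5 and 26 with DM+Met, and Cmpk2, a mitochondrial nucleotide kinase, had 19 and 0, 1 and 39, and 1 and 18. Both were thus at or near 0 in 1 library of each medium. Mx1, a dynamin-like antiviral GTPase, had 0 to 4 reads in CM and DM and 12 and 34 in DM+Met, and was not called (adjusted p 0.154 against CM and 0.525 against DM). Some but not all proteins of the oligoadenylate synthetase family make the second messenger that activates RNase L. Oas1a had 13 to 60 reads, Oas3 15 to 67, Oasl1 0 to 40, and the untested Oas2 and Oasl2 0 to 36 and 0 to 40. Rsad2, which encodes viperin, had 14 to 62 reads, Xaf1 22 to 68, and Eif2ak2, the kinase PKR that halts translation on double-stranded RNA, 67 to 154. The RNA exonuclease gene Isg20 had 189 and 108 reads with CM, 62 and 382 with DM and 241 and 433 with DM+Met. None of these genes was called in any of the 3 comparisons.

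Of the sensors, which recognise viral RNA or Z-form nucleic acid, only Ifih1, which encodes MDA5, was called, in DM against CM. Ifih1 had 35 and 9 reads with CM, 108 and 185 with DM and 98 and 130 with DM+Met, with both dialyzed media above CM. It rose by 2.14 in DM (SE 0.57, adjusted p 0.0306), and its 1.68 in DM+Met was not called (adjusted p 0.0769). Leaving out 1 library gave changes in DM from 1.53 (without CM library 2) to 2.745 (without CM library 1). Ddx58, which encodes the sister sensor RIG-I, had 123 and 181 reads with CM, 237 and 478 with DM and 470 and 285 with DM+Met, a difference of 0.79 in DM that was not called (adjusted p 0.202). Dhx58, which encodes LGP2, a relative of both without the signalling domain, went the other way, with 167 and 144 reads with CM, 166 and 18 with DM and 44 and 18 with DM+Met. DM library 1 was at the CM level and DM library 2 was not, and the DM difference of −1.53 had an SE of 0.82. Its −2.52 in DM+Met, not called with all libraries, was called without DM library 1 (adjusted p 0.0461) and without DM library 2 (adjusted p 0.0428). Zbp1, the Z-nucleic acid sensor, had 206 and 285 reads with CM, 134 and 193 with DM and 343 and 473 with DM+Met. Its differences, −0.90 in DM against CM (adjusted p 0.102) and 1.10 in DM+Met against DM (adjusted p 0.357), were not called.

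Among the 4 transcription factors, Irf9 alone was called. Irf9 levels were 5.45 and 5.14 with CM, 6.11 and 6.18 with DM and 6.69 and 6.80 with DM+Met, with no overlap between any 2 media. It rose by 0.85 in DM (SE 0.21, adjusted p 0.0236) and by 1.45 in DM+Met (adjusted p 0.00176). Its exons overlap those of Rnf31 on the same strand, so reads cannot be assigned with certainty. Stat2, the partner of IRF9, stood at 5.67 and 5.38 with CM, 5.05 and 4.15 with DM and 5.28 and 4.72 with DM+Met, and its −0.93 in DM was not called (adjusted p 0.104). Irf1, which IFN-γ and T cell activation both induce, was flat and high, with 7.81 and 7.93 with CM, 7.60 and 7.84 with DM and 7.86 and 7.66 with DM+Met. The 95% confidence interval of the Irf1 difference between DM and CM was −0.51 to 0.21. Irf7, which amplifies type I interferon, had 43 to 102 reads and was not called.

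The GBP and IRG GTPases, which attack the membranes around intracellular microbes, had the highest summed level of the 4 groups. Their summed level was 493.7 ± 59.96 CPM (SD, n = 2) with CM, 731.7 ± 5.59 with DM and 925.9 ± 140 with DM+Met, which is 1.48 and 1.88 times the CM level. Ifi47, an IRG protein gene, had the smallest adjusted p of the group in both dialyzed media. Its levels were 6.49 and 5.99 with CM, 7.41 and 7.62 with DM and 8.01 and 7.96 with DM+Met, so the media did not overlap. Ifi47 rose by 1.28 in DM (SE 0.20, adjusted p 0.00309) and by 1.74 in DM+Met (adjusted p 5.18e-04). An exon of Olfr56 overlaps it on the same strand. Iigp1, another IRG gene, stood at 4.94 and 3.90 with CM, 6.05 and 5.39 with DM and 6.31 and 5.81 with DM+Met. It rose by 1.30 in DM (SE 0.38, adjusted p 0.0426) and by 1.64 in DM+Met (adjusted p 0.0178). Its change in DM ranged from 0.78 (without CM library 2) to 1.82 (without CM library 1) when 1 library was left out.

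Of the GBP members, 0 were called in DM against CM (Gbp7 and Gbp4 had unadjusted p-values below 0.05), and Gbp7 and Gbp4 were called in DM+Met. Gbp7 had levels of 5.82 and 4.95 with CM, 5.93 and 6.47 with DM and 6.99 and 6.69 with DM+Met, and rose by 1.46 (SE 0.31, adjusted p 0.0117) in DM+Met, with 0.82 in DM (adjusted p 0.0959). Gbp4 stood at 5.55 and 5.48 with CM, 6.12 and 6.30 with DM and 6.70 and 6.26 with DM+Met, and rose by 0.96 (SE 0.22, adjusted p 0.0178) in DM+Met, with 0.69 in DM (adjusted p 0.0610). Gbp4 shares exons with Gbp8 and Gbp9 in the annotation, and the GBP genes are near copies of each other, so their reads may be divided. Gbp2 and Gbp3 were not called in any comparison. Gbp3 had 101 and 124 reads with CM, 90 and 200 with DM and 452 and 236 with DM+Met, and Gbp2 had 511 to 835 in the first 4 libraries and 1464 and 920 in DM+Met. Igtp and Irgm2, which also share exons, and Irgm1 were not called either. Igtp was high throughout, with 1394 to 3045 reads, and Irgm1 ranged from 60 to 211 reads, the lowest and the highest both in DM.

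**Figure D3:**
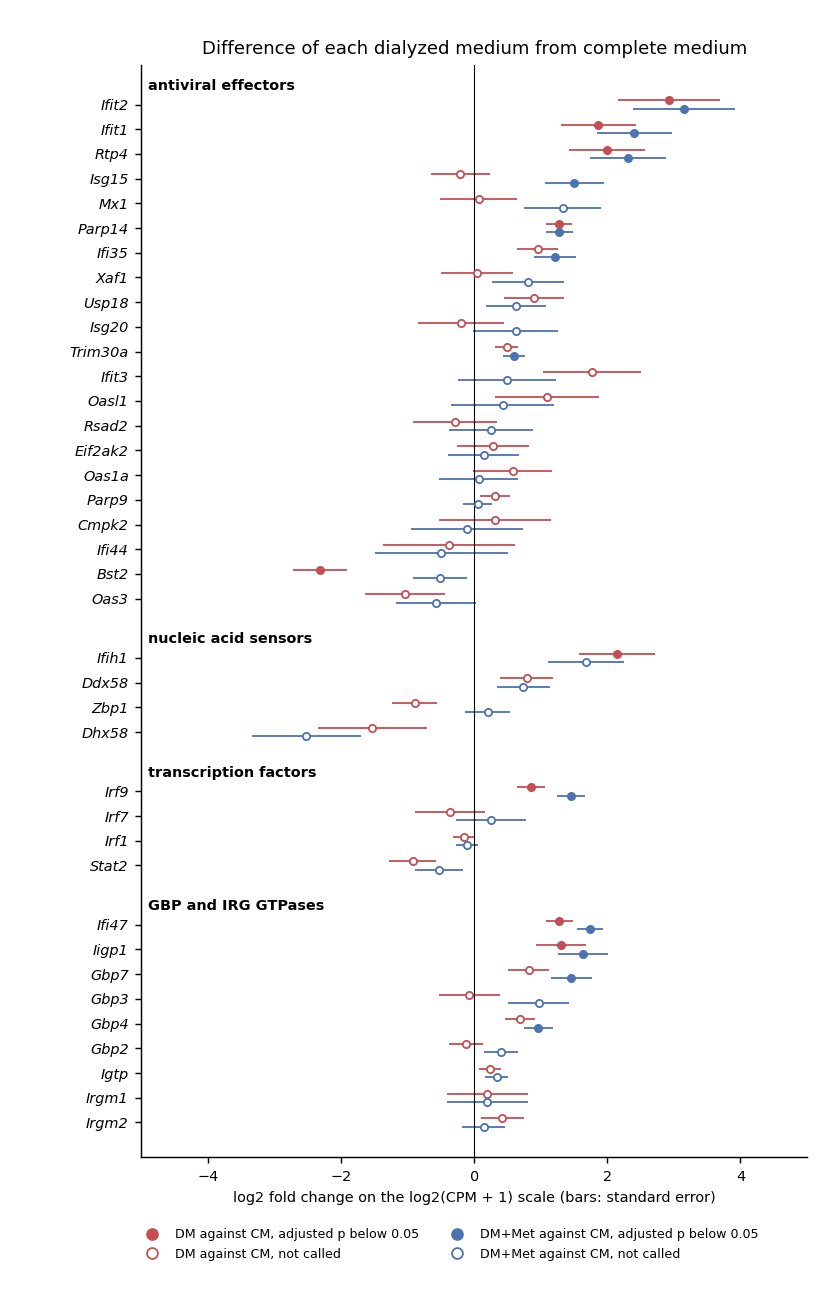
Log2 fold change of the 38 tested genes in DM (red) and DM+Met (blue) against CM, with standard errors; filled points passed an adjusted p of 0.05. Ifit2, Ifit1, Rtp4, Parp14, Irf9, Ifi47 and Iigp1 are filled in both colours, Isg15 is filled in DM+Met alone, and Bst2 is the only filled point left of 0.

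Most interferon ligands were not read. Of 21 ligand genes, 18 had 0 reads in all 6 libraries, among them Ifnb1 and every Ifna gene listed, and a count of 0 allows up to 3 reads, a level of 0.32 to 0.47. Ifnk had 12 reads, all in DM+Met library 1, and Ifnz had 1 read in DM library 2 and 1 in DM+Met library 2. Ifng, the IFN-γ gene, was read throughout, with 79 and 148 reads with CM, 1 and 24 with DM and 32 and 45 with DM+Met. It was highest in CM. Ifng fell by 2.93 on the log2 scale in DM (SE 0.67, adjusted p 0.0176). When 1 library was left out, the Ifng change in DM ranged from −2.18 (without DM library 1) to −3.68 (without DM library 2). Most of these fits did not call Ifng. Its values of −1.75 in DM+Met against CM (adjusted p 0.111) and 1.18 in DM+Met against DM (adjusted p 0.628) were not called.

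Of the receptor, JAK and STAT genes, 10 of 11 were tested, and 1 rose and 1 fell in DM (20% called, against 16.9% of all rows). In DM+Met against CM 2 rose and 0 fell (20%, against 15.3% of all rows). Ifngr1, the ligand-binding chain of the IFN-γ receptor, had levels of 7.32 and 7.57 with CM, 8.52 and 8.18 with DM and 8.76 and 8.64 with DM+Met. It rose by 0.91 in DM (SE 0.17, adjusted p 0.00707) and by 1.26 in DM+Met (adjusted p 0.00125). Stat3, which serves interleukin signals more than interferon, fell by 0.54 in DM (SE 0.14, adjusted p 0.0313). Jak1 rose by 0.69 in DM+Met (SE 0.18, adjusted p 0.0284), with 0.47 in DM (adjusted p 0.0953). Differences in DM that were not called were 0.99 for Ifnar1 (adjusted p 0.0631) and 0.70 for Jak2 (adjusted p 0.0610). Ifnar2 stayed between 6.24 and 6.60, and Ifngr2, Il10rb, Tyk2 and Stat4 were not called in any comparison. Ifnlr1, the receptor of type III interferon, had 0 to 8 reads and was not tested.

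**Figure D4:**
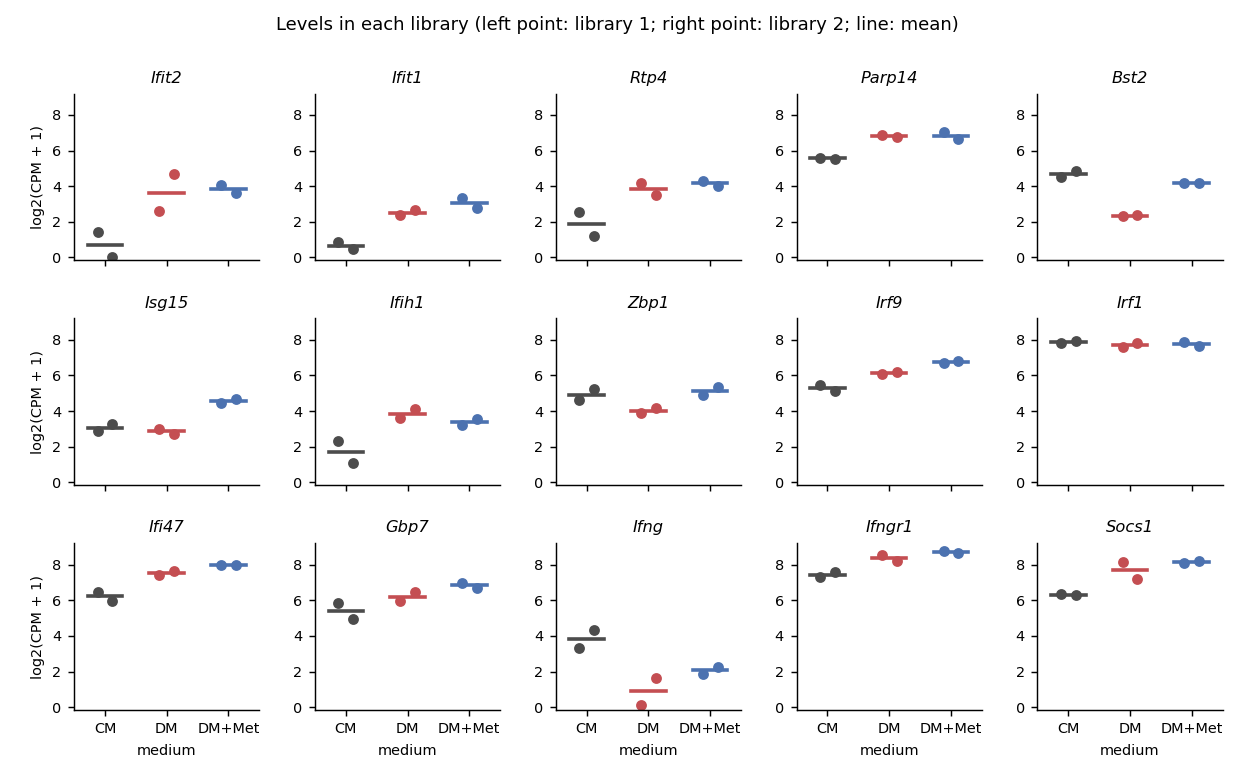
Level of 15 genes as log2(CPM + 1) in each library by medium, with a line at the mean of the 2 libraries. Ifit2, Rtp4, Parp14, Ifih1 and Ifi47 are above CM in both dialyzed media, Bst2 is low in DM alone, Isg15 is high in DM+Met alone, Irf1 is flat, and Ifng is highest in CM.

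Of 18 negative regulators, genes that restrain the pathway, 2 rose and 1 fell in DM (16.7% called), and 2 rose and 3 fell in DM+Met against CM (27.8%). Over all rows 16.9% and 15.3% were called. Socs1, an inhibitor of JAK kinases, had 706 and 595 reads with CM, 2772 and 1672 with DM and 3226 and 3541 with DM+Met, and rose by 1.37 (adjusted p 0.00773) and 1.84 (adjusted p 0.00165). Adar, which edits double-stranded RNA, rose by 1.26 in DM (adjusted p 0.0212) and by 1.09 in DM+Met (adjusted p 0.0391). Rnaseh2a, a subunit of the enzyme that removes RNA from DNA, fell by 1.25 in DM (adjusted p 0.0254). In DM+Met the falls were in Ptpn2 (−0.97, adjusted p 0.0360), Samhd1 (−0.71, adjusted p 0.0141) and Ptpn6 (−0.60, adjusted p 0.0309), which encode 2 phosphatases and a nucleotide hydrolase. Of 16 tested sensor, adaptor and interferon regulatory factor genes, 3 rose and 1 fell in DM (25% called), and 4 rose and 1 fell in DM+Met (31.2%). Ikbke, a kinase that activates IRF3, rose by 1.52 in DM (adjusted p 0.00193) and by 1.24 in DM+Met (adjusted p 0.00449). Irf3 rose by 1.12 (adjusted p 0.0362) and 1.42 (adjusted p 0.0144), and Trim56 by 1.11 (adjusted p 0.00511) and 1.41 (adjusted p 0.00139). Irf8, a factor of B and myeloid cells that T cells also express, fell by 1.89 in DM (adjusted p 4.57e-04) and by 2.25 in DM+Met (adjusted p 1.49e-04). The fourth rise in DM+Met was in Tank (0.84, adjusted p 0.0340).

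A further list of 74 tested genes that interferon induces had calls in both directions, with 23 higher and 10 lower in DM (44.6% called) and 25 higher and 6 lower in DM+Met against CM (41.9% called). Its median log2 fold change was 0.47 in DM and 0.67 in DM+Met, and the shares called over all rows were 16.9% and 15.3%. The list was written with earlier results of these data known, so its shares are a description and no test. Ifit1bl1, a neighbour of the IFIT genes, had 0 reads in both CM libraries, 85 and 153 with DM and 134 and 74 with DM+Met, at least 30.6-fold and at least 24.0-fold higher against a floor of 3 reads per library. Ifi203, of the family of DNA-binding PYHIN proteins, had 129 and 74 reads in CM and 1103 to 1827 in the other 4, and rose by 3.26 in DM (SE 0.25, adjusted p 9.73e-05) and 3.51 in DM+Met. Ms4a4b, a T cell membrane protein gene, rose by 3.17 in DM (adjusted p 3.56e-05), and Pyhin1 by 2.49 (adjusted p 0.00462). In DM+Met the other large rises were in Ms4a4b (2.86), Ddx60 (2.89), an RNA helicase gene, and Ifit1bl1.

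Among the falls in that list, Ifitm1 and Ifitm3 encode proteins that block the fusion of viruses with endosomal membranes. Ifitm1 had 595 and 473 reads with CM, 11 and 57 with DM and 65 and 108 with DM+Met, and fell by 4.18 in DM (adjusted p 0.00150) and 3.01 in DM+Met (adjusted p 0.00598). Ifitm3 had 567 and 565 reads with CM, 47 and 51 with DM and 95 and 195 with DM+Met, and fell by 3.62 (adjusted p 7.70e-04) and 2.48 (adjusted p 0.00399). Ly6a, which encodes the surface protein Sca-1, fell by 1.86 in DM and 1.98 in DM+Met. Pml, the scaffold of nuclear bodies, fell by 1.46 in DM (adjusted p 0.00343), and Nampt, the enzyme that salvages NAD, by 1.52 in DM+Met (adjusted p 0.00306). The 13 further interferon-inducible GTPases were from the GBP and IRG families and, with Gvin1, the family of very large inducible GTPases. Of these 13, 23.1% were called in DM and 46.2% in DM+Met, against 16.9% and 15.3% of all rows. In DM 3 rose (Tgtp2, Gvin1 and Tgtp1, by 1.69, 1.65 and 1.61) and in DM+Met 6 rose, with 0 lower in either. The largest in DM+Met was Gbp11, with 10 and 3 reads with CM, 29 and 109 with DM and 196 and 168 with DM+Met, a rise of 3.24 (adjusted p 0.00798), followed by Gvin1 (2.08), Gbp5 (1.58) and Gbp6 (1.55). Tgtp1 and Tgtp2 are near-identical copies, and their reads may be divided between them. In DM+Met against DM, 0 genes were called in each of these lists.

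**Figure D5:**
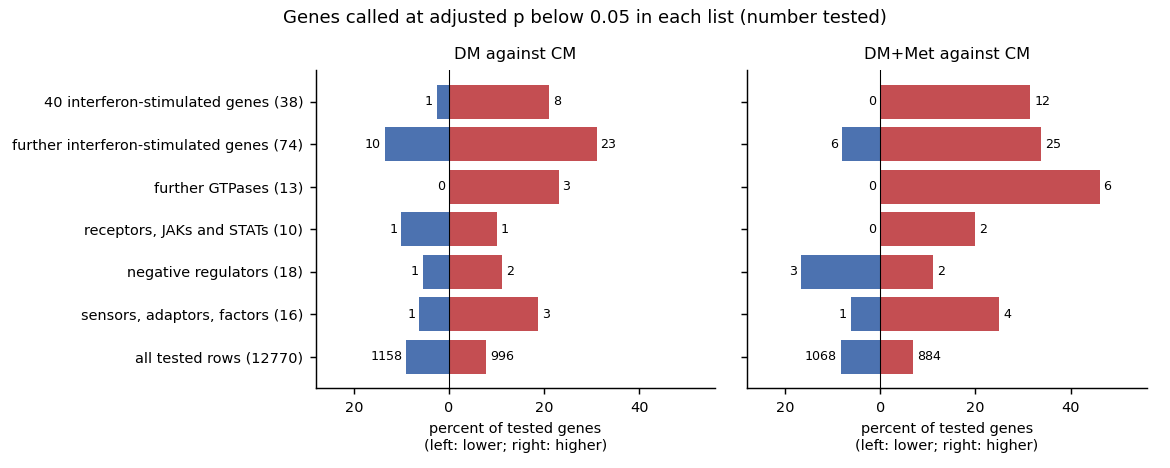
Percent of tested genes called higher (right, red) or lower (left, blue) than in CM for each list, for DM (left panel) and DM+Met (right panel), with the number of genes at each bar and the number tested in brackets. All tested rows split into 996 higher and 1158 lower in DM, while the 40 genes split into 8 and 1.

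Methionine was the only stated difference between DM+Met and DM, and 0 of the 38 genes passed the threshold there. Those with an unadjusted p below 0.05 were Bst2, Isg15, Zbp1, Irf9, Gbp3 and Ifi47, all 6 higher in DM+Met; they are 15.8% of the 38, and over all rows 1238 of 12770 (9.69%) had such a p. The log2 differences were 1.05 for Gbp3 (adjusted p 0.503), 0.60 for Irf9 (adjusted p 0.412) and 0.46 for Ifi47 (adjusted p 0.495), beside those of Bst2, Isg15 and Zbp1 above. The median was 0.27 over the 38 and 0.01 over all rows. For genes at similar levels in both media the intervals were wide, for example −0.44 to 0.45 for Parp14, so a missed threshold does not show equal levels. Scaling by library totals, without the TMM factors, moved the median of all rows in this comparison to 0.34 and that of the 38 to 0.63.

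Of 29 tested markers of other cell types, 4 were called in DM against CM (13.8%, against 16.9% of all rows), and their part in the values above was not tested. Of 8 dendritic cell markers, 1 of 6 tested, Ccl17, was called in DM, and their summed level was 24.3 to 59.1 CPM with CM, 81.9 to 127 with DM and 84.8 to 106 with DM+Met. Most of that sum was Pacsin1 (14.0 and 41.0 CPM with CM, 84.2 and 41.0 with DM, 37.3 and 53.6 with DM+Met) and Ccl17 (at most 0.114 with CM, 26.8 and 24.5 with DM, 28.8 and 23.3 with DM+Met), and the other 6 markers summed to 10.1 and 18.1 CPM with CM, 15.6 and 16.5 with DM and 18.8 and 29.2 with DM+Met. Clec9a had 0 reads in all libraries and Siglech at most 8. Of 10 myeloid markers, Lyz2 alone was called in DM, and the sum was 20.1 to 29.2, 37.8 to 49.8 and 37.0 to 54.6 CPM. The 8 B cell markers summed to 122.6 to 124.5 CPM with CM, 83.5 to 98.4 with DM and 69.0 to 82.7 with DM+Met, with Pax5 at 0 reads, and 1 of 7 tested, Blnk, was called in DM. The 7 CD8 T and NK cell markers summed to 73.45 to 82.36, 39.98 to 44.59 and 37.87 to 50.33 CPM, and 1 of 6 tested, Cd8a, was called in DM. The 40 interferon-stimulated genes summed to 1151 to 1229 CPM with CM, 1531 to 1617 with DM and 1748 to 1992 with DM+Met.

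With 2 libraries per medium, many calls were lost when 1 library was left out. Calls were also lost without a library of the medium outside the comparison, where the fold changes stayed the same. A lost call alone thus does not show that a gene depended on the values of that library. In DM against CM, 9 genes were called with all 6 libraries, 5 without CM library 1, 3 without CM library 2, 2 without DM library 1, 2 without DM library 2, and 3 without each DM+Met library. Bst2 and Parp14 were called in all 6 of these fits and Ifi47 in 4, while the other 6 were called in at most 1. In DM+Met against CM, of the 12 genes 6 were still called without CM library 1, 4 without CM library 2, 5 without each DM library, 1 without DM+Met library 1 and 2 without DM+Met library 2. Without either DM library Dhx58 was called as well, as lower. Ifi47 was called in all 6 of those fits, Parp14 in 5 and Irf9 in 4, while Isg15, Ifit2 and Gbp4 were called in 0. No called gene of the 40 changed direction in these fits, which follows from the media compared not overlapping for these genes. How many of all rows were called in these fits is not given here. Of the 21 calls named outside the 40 in DM, 8 held in all 6 fits (Irf8, Ikbke, Ifitm1, Ifitm3, Ly6a, Ms4a4b, Ifi203 and Ifit1bl1) and 3 in none (Stat3, Rnaseh2a and Irf3). Of the 24 named in DM+Met, 5 held in all 6 (Irf8, Ly6a, Ms4a4b, Ifi203 and Gvin1), and Ddx60, Adar and Ptpn2 held in 1.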

How the data were processed

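CD4 T cell RNA was sequenced with a 3′-end kit (QuantSeq) in 6 libraries. The authors deposited log2 of TMM-scaled CPM plus 1, to 3 decimals; the study names TMM and CPM, and the log base and added 1 follow from the spacing of low values. The submitters' processing notes name Bowtie2, bedtools and build mm10, and the annotation and use of strand are not given in the sources used here. Reads were recovered from the equal steps of the values (at least 99.6% within 0.1 of a whole number, up to 300 reads). The files of a sample were counted as 2 replicates, and p-values measure the spread between them. Rows with 0.946 CPM (10 reads at the median depth) in 2 libraries and 15 reads in all were fitted with limma 3.58.1 in R 4.3.3 (lmFit, eBayes with trend), all 6 libraries in 1 model, two-sided, with Benjamini-Hochberg adjustment over 12770 rows and a threshold of 0.05. Of the rows, 44 repeat a symbol and were kept apart. Scripts were tested on simulated data. Promoters are from RefSeq (GRCm38.p6), and gene overlaps from GENCODE M21 (GRCm38). Intervals and floors cover counting error or replicate spread only.

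The members and gene lists were chosen with earlier results of these data known. Genes named are all 40 members, all ligands, receptors, JAKs and STATs except 1 gene that is not reported here, and in each other list up to 4 called genes in each direction and comparison with the largest fold change. Marker genes were set by cell type.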

Additional observations from a re-analysis of the deposited data

How the results depend on the processing

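The 9 genes called between DM and CM became 4 without a low-value filter, 4 with a pseudocount of 0.1, 4 with limma-voom on the recovered reads, 5 without an intensity trend and 3 with the 2 media fitted alone, and 2 to 5 when 1 library was left out. Between DM+Met and CM, where 12 were called, there were 6 calls without a filter, 5 without a trend, 6 with the 2 media alone (5 of the 12, and Dhx58 as lower), and 1 to 6 with 1 library left out, where the lone library is assumed to vary like the others. All other alternatives gave 6 to 12 and 9 to 14 genes, and DM+Met against DM gave 0 under every one. The share of all rows called is given for the main fit alone. The counts under other settings therefore do not show how the members compared with all rows there. Scaling without Rn45s gave 12 genes in DM, with Ifi35, Trim30a and Gbp4 added. In DM+Met against CM, Dhx58 was called lower with 10 reads required in every library, a mean log2 value of at least 2, a pseudocount of 5, the 2 media alone, the replicate block and either DM library left out (adjusted p 0.0202 to 0.0461), and Ifih1 (library totals, or the mean filter) and Igtp (library totals) were added as higher. Of all rows called, 46.2% were higher in DM and 59.5% with scaling without Rn45s; for DM+Met against CM the shares were 45.3%, 57.4% with that scaling and 76.3% with library totals, which moved the median of all rows from 0.06 to 0.41. Bst2, Parp14 and Ifi47 in DM, and Parp14, Irf9 and Ifi47 in DM+Met, passed in all 12 alternatives that kept every library. Over all 38 members, signs changed in 79 refits of uncalled genes and in 0 of called ones. For called genes the media compared did not overlap, so leaving out 1 library could not change their sign. File numbers did not pair the libraries (correlations of their deviations −0.025, 0.0048 and −0.030), and a replicate block gave 8, 0 and 11 genes. Over the last 150 bases of the window, the ISRE core was in 46.7% of members and 1.69% of all genes, and the GAS in 23.3% and 4.55%. Depth limits what can be said of the 18 members with a median under 100 reads. The cause of these changes was not tested.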
